A study of Mus musculus with 6 samples.

Results

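Striatal projection neurons are the GABAergic output cells of the striatum, and 9 genes by which they are commonly recognised were followed in whole mouse brain: Ppp1r1b, Adcy5, Pde10a, Rgs9, Rasd2, Adora2a, Penk, Pdyn and Tac1. The genes were taken by symbol, through the Ensembl identifiers of the count files and GENCODE M21, from 60354 listed features. All 9 passed the filter on low counts and belong to the 18580 features tested. Brain RNA came from male C57BL/6NCrSlc mice that entered the study at 16 weeks of age and then received, for 16 weeks, a modified AIN-93M diet holding 20% of PLDP, pig liver broken down with protease (PLDP mice 17, 22 and 26) or a calorie-adjusted modified AIN-93M diet without it (control mice 2, 5 and 10). Behavioral tests then ran for 17 days, during which the PLDP diet was not given, and RNA was extracted on day 18. The comparison of 3 PLDP with 3 control mice asks whether the marker genes of these neurons differed in level after the diet and the tests.

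Projection neurons make up most of the neurons of the striatum and fall into classes of similar number. Direct-pathway neurons carry the dopamine receptor Drd1 and make dynorphin and substance P from the Pdyn and Tac1 precursors, and indirect-pathway neurons carry Drd2 and the adenosine receptor Adora2a and make enkephalin from the Penk precursor. Both classes turn dopamine and adenosine signals into changes of cAMP, which Adcy5 produces, Pde10a degrades and the phosphoprotein encoded by Ppp1r1b relays to protein phosphatases. These circuits are known for their part in movement, reward and habit. None of the genes is limited to the striatum, since Penk, Pdyn and Tac1 are also made in parts of the hypothalamus, the hippocampus or the brainstem. In RNA of a whole brain, fewer cells of a type and less RNA per cell cannot be told apart.

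The promoters of Pdyn and Tac1 are shown because both are peptide genes of direct-pathway neurons, in which transcription of such genes is known to respond to cAMP. The windows of RefSeq (GRCm38.p6) run from 250 bases before a transcription start to 50 bases from it on, written 5′ to 3′ on the strand of the gene. Capitals mark the half-site CGTCA of the cAMP response element, searched on both strands, which is also contained in the full element TGACGTCA.
Tac1, chr6:7554811-7555110, plus strand: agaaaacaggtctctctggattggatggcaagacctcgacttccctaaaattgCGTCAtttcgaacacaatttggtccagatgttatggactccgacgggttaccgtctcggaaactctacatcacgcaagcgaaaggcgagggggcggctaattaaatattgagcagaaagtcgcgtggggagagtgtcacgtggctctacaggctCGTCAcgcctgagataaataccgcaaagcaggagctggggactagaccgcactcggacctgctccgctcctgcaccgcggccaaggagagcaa
Pdyn, chr2:129699889-129700188, minus strand: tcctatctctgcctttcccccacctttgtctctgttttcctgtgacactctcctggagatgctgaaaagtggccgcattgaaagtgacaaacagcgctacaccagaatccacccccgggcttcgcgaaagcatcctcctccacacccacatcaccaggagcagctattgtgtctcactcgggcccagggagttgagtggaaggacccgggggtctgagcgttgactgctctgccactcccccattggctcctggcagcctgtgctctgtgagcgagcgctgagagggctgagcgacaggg

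The Tac1 window holds the half-site 2 times, with first bases 197 and 43 bases before the start, and the shown Pdyn window does not hold it. A second Pdyn window and the windows of Rasd2, Rgs9, Adcy5 and Pde10a did not hold it either, and the full element was found in none of the windows of these 6 genes. Of all 32817 such windows, 20.8% hold the half-site and 1.79% the full element. Windows were matched by symbol for 6 of the 9 genes.

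None of the 9 genes differed between PLDP and control mice at an unadjusted p under 0.05 by edgeR's quasi-likelihood test, with 0 genes higher and 0 lower. Over all features tested, 8.6% passed that threshold, 4.91% higher and 3.69% lower in PLDP mice. Among the 7393 features with a mean level between those of the lowest and the highest of the 9 genes, 10.3% passed. DESeq2 and limma voom also called 0 of the 9 genes, where they called 4.98% and 8.67% of all features. The log2 fold changes lay between -0.07 and 0.07, 5 above and 4 below 0, with a median of 0.0030 beside -0.0006 over all features. The unadjusted p-values of the 9 genes ran from 0.183 to 0.966 and the adjusted p-values, over all features, from 0.746 to 0.995. A p that misses the threshold does not show equal levels, and the 95% intervals give the differences that remain possible. The lowest bound was 15.2% below the control level, for Adora2a, and the highest 13.4% above it, for Rgs9. Between 422 and 5886 reads were counted per gene and mouse. Levels are given as CPM, the counts scaled to a common library total with TMM factors of edgeR.

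**Figure D1:**
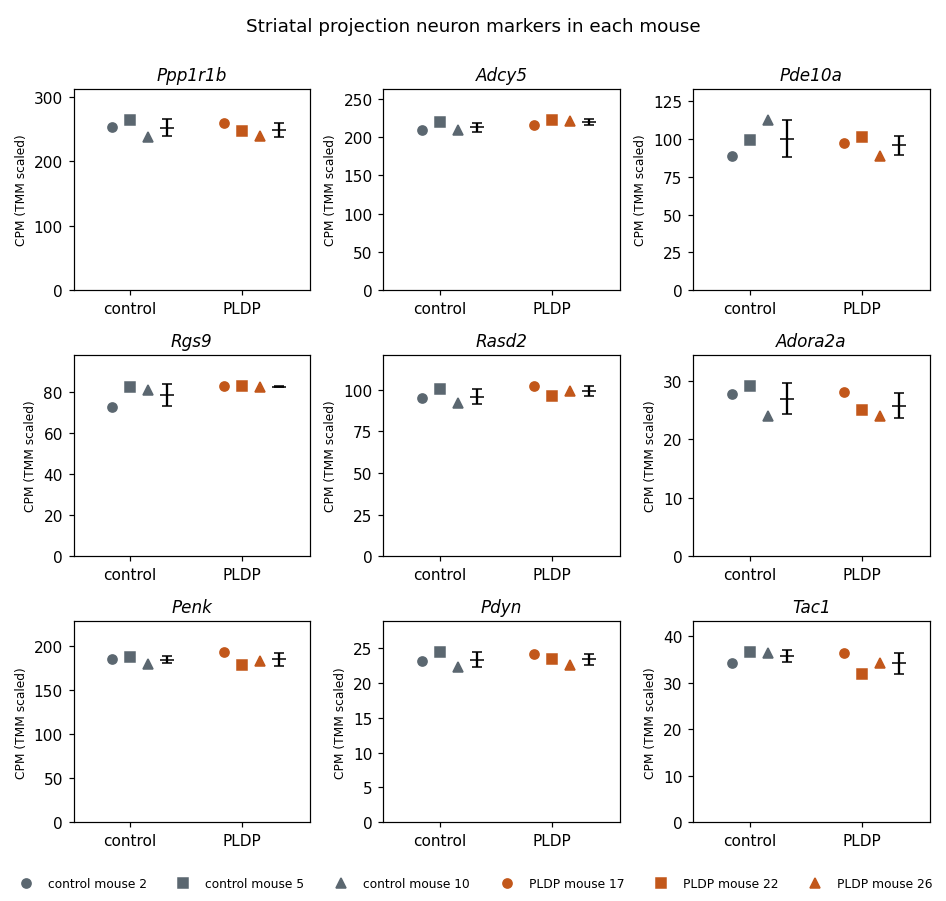
Level of each of the 9 striatal genes in each mouse, in CPM after TMM scaling, with axes from 0; symbols are single mice and the black bars the mean ± SD of 3 mice per diet. In 8 of the 9 panels the PLDP and control mice overlap, and in the panel of Rgs9 they are 0.027 CPM apart.

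Ppp1r1b encodes the dopamine- and cAMP-regulated phosphoprotein that inhibits protein phosphatase when phosphorylated by protein kinase A (ENSMUSG00000061718, chromosome 11 of GRCm38 from 98348404 to 98357796, with exons overlapped on the other strand by 1700003D09Rik). It had 253.8, 264.8 and 238.1 CPM in control mice 2, 5 and 10, and 260.1, 246.8 and 239.0 CPM in PLDP mice 17, 22 and 26. The 2 highest levels belonged to 1 mouse of each diet, and so did the 2 lowest. Means were 252.2 ± 13.4 and 248.6 ± 10.7 CPM (SD, n = 3 mice each), and the level in PLDP mice was 1.42% lower, with a 95% interval from 7.81% lower to 5.42% higher (edgeR, adjusted p = 0.944). The sign of this difference turned without control mouse 5 or without PLDP mouse 26.

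Adcy5 encodes the main adenylyl cyclase of the striatum, the enzyme that makes cAMP (ENSMUSG00000022840, chromosome 16 from 35154877 to 35305738). Control mice had 209.7, 219.9 and 209.6 CPM and PLDP mice 215.7, 223.0 and 220.9 CPM. Control mouse 5 lay within the range of the PLDP mice and the other two control mice below it. Means were 213.0 ± 5.90 and 219.9 ± 3.76 CPM (SD, n = 3 each). On the log2 scale the difference was 0.05 (standard error 0.04, 95% interval -0.04 to 0.13, adjusted p = 0.797 by edgeR), the narrowest interval of the 9 genes.

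Pde10a encodes a phosphodiesterase that breaks down cAMP and cGMP and is enriched in the striatum (ENSMUSG00000023868, chromosome 17 from 8525372 to 8986648). It had 89.1, 99.2 and 113.0 CPM in control mice and 97.3, 101.3 and 88.9 CPM in PLDP mice. Both the widest spread of the 9 genes, 1.27-fold between mice, and the largest coefficient of variation in control mice, 11.9%, were those of Pde10a. Control mouse 10 was the highest of all mice for this gene, although it was the lowest of all for Ppp1r1b, Pdyn, Rasd2 and Adcy5. The log2 fold change was -0.07 (standard error 0.07, 95% interval -0.21 to 0.08, adjusted p = 0.846 by edgeR). The value rested on single control mice: without control mouse 2 it was -0.15 with an unadjusted p of 0.047, and without control mouse 10 it was 0.03 with an unadjusted p of 0.694.

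Rgs9 encodes a regulator of G protein signaling that shortens the signal of dopamine and opioid receptors in the striatum, and of rhodopsin in the retina (ENSMUSG00000020599, chromosome 11 from 109225355 to 109298129). Control mice had 72.4, 82.1 and 80.9 CPM and PLDP mice 82.5, 82.9 and 82.1 CPM. This was the only one of the 9 genes whose diets did not overlap, by 0.027 CPM, and with counts divided by library size alone they overlapped, at 81.7 CPM in the lowest PLDP mouse and 81.8 CPM in the highest control mouse. Over all features, 14.2% did not overlap, 7.29% with all PLDP mice higher. Control mouse 2 was the lowest of all mice, and without it the log2 fold change fell from 0.07 to 0.02. Means were 78.5 ± 5.25 and 82.5 ± 0.40 CPM (SD, n = 3 each), 5.12% higher in PLDP mice with a 95% interval from 2.57% lower to 13.4% higher (edgeR, unadjusted p = 0.183, adjusted p = 0.746).

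Rasd2 encodes Rhes, a small GTP-binding protein of the striatum that binds signaling proteins of the dopamine pathway (ENSMUSG00000034472, chromosome 8 from 75213944 to 75224113). It had 94.9, 100.7 and 92.1 CPM in control mice and 102.4, 96.3 and 99.1 CPM in PLDP mice. PLDP mouse 17 was highest and control mouse 5 second. The log2 fold change was 0.05 (standard error 0.05, 95% interval -0.05 to 0.15, adjusted p = 0.824 by edgeR). Its close relative Rasd1, known to be induced by glucocorticoids, was among the genes that rose and is described with the cAMP pathway.

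Adora2a encodes the adenosine receptor that raises cAMP in indirect-pathway neurons (ENSMUSG00000020178, chromosome 10 from 75316877 to 75334784). Levels were 27.8, 29.2 and 24.1 CPM in control mice and 28.2, 25.1 and 24.1 CPM in PLDP mice. The order of the 4 highest mice, control mouse 5, PLDP mouse 17, control mouse 2 and PLDP mouse 22, was that seen for Ppp1r1b. Means were 27.0 ± 2.63 and 25.8 ± 2.17 CPM (SD, n = 3 each). The log2 fold change was -0.07, with the widest interval of the 9 genes, from -0.24 to 0.10 (standard error 0.08, adjusted p = 0.873 by edgeR). Leaving out 1 mouse moved it from -0.0069 without control mouse 5 to -0.14 without control mouse 10. With counts of 450 to 644 per mouse, counting alone gives a coefficient of variation of 4.22% for Adora2a, beside 9.74% between control mice and 8.40% between PLDP mice.

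Penk encodes proenkephalin, the precursor of the enkephalins (ENSMUSG00000045573, chromosome 4 from 4133531 to 4138819, with exons overlapped on the other strand by A830012C17Rik). Control mice had 185.6, 187.1 and 179.8 CPM and PLDP mice 193.2, 178.4 and 182.5 CPM. The highest and the lowest mouse were both PLDP mice, so the control range lay inside that of the PLDP mice. Means were 184.2 ± 3.82 and 184.7 ± 7.64 CPM (SD, n = 3 each), 0.278% higher in PLDP mice with a 95% interval from -5.7% to 6.64% (edgeR, adjusted p = 0.988).

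Pdyn encodes prodynorphin, the precursor of the dynorphins (ENSMUSG00000027400, chromosome 2 from 129686565 to 129699844). It had 23.2, 24.5 and 22.3 CPM in control mice and 24.1, 23.4 and 22.6 CPM in PLDP mice. All 3 PLDP mice lay between the lowest and the highest control mouse. The mean was 23.3 ± 1.08 CPM in control and 23.4 ± 0.77 CPM in PLDP mice (SD, n = 3 each), 0.208% higher in PLDP mice with a 95% interval from 9.34% lower to 10.8% higher (edgeR, adjusted p = 0.995). The variation of Pdyn between control mice, a coefficient of 4.62%, was close to the 4.49% that counting alone gives at its depth.

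Tac1 encodes the precursor of substance P and neurokinin A (ENSMUSG00000061762, chromosome 6 from 7554879 to 7565834). Levels were 34.2, 36.7 and 36.5 CPM in control mice and 36.3, 32.0 and 34.2 CPM in PLDP mice. PLDP mouse 22 was the lowest for this gene. Means were 35.8 ± 1.39 and 34.2 ± 2.16 CPM (SD, n = 3 each), 4.59% lower in PLDP mice with a 95% interval from 13.1% lower to 4.70% higher (edgeR, adjusted p = 0.816).

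**Figure D2:**
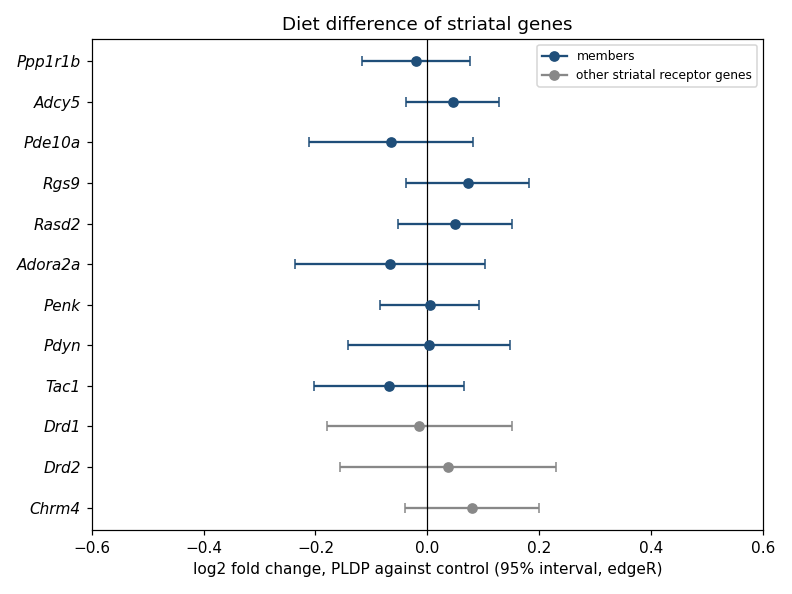
Log2 fold change of PLDP against control mice, with its 95% interval from edgeR, for the 9 striatal genes (blue) and for the striatal receptor genes Drd1, Drd2 and Chrm4 (grey), with a line at 0. Each interval includes 0, and those of the 9 genes stay between -0.24 and 0.18.

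To compare levels between genes, CPM were divided by the length in kilobases of all annotated exons of the gene, which holds if all of those exons are used alike. Penk was the highest, with 112.9 ± 3.31 CPM per kilobase (SD, n = 6 mice), followed by Ppp1r1b with 85.5 ± 3.75, and no ranges over the 6 mice overlapped between these genes or with those that follow. Rasd2 (30.7 ± 1.22) and Adcy5 (30.1 ± 0.81) had overlapping ranges. Rgs9 came next with 12.6 ± 0.63 CPM per kilobase, apart from both neighbours. Tac1 (10.3 ± 0.54), Adora2a (8.63 ± 0.74), Pdyn (8.08 ± 0.29) and Pde10a (7.64 ± 0.69) each overlapped with the next in order. Per length, proenkephalin mRNA was thus the most abundant of the peptide precursors, and the ranges of Tac1 and Pdyn, the lower of the pair, did not overlap.

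The 9 genes together took between 0.0987% and 0.104% of the counts of a mouse. Their summed level was 991, 1044 and 996 CPM in control mice and 1040, 1009 and 993 CPM in PLDP mice, with means of 1010 ± 29.3 and 1014 ± 23.6 CPM (SD, n = 3 each). Control mouse 5 was above the 6-mouse mean of log2 CPM for 9 of the 9 genes and highest for 4 of them, and PLDP mouse 17 was above it for 7. Control mice 2 and 10 and PLDP mouse 26 were above it for 3 each. A mouse of either diet was thus among the high and among the low ones.

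Counts of an indirect-pathway and a direct-pathway gene were compared as their ratio within a mouse, which needs no scaling between libraries. In RNA of a whole brain, transcripts made outside the striatum enter these ratios, so they do not isolate the balance between the striatal pathways. The ratio of Penk to Pdyn was 8.01, 7.65 and 8.06 in control mice and 8.02, 7.61 and 8.09 in PLDP mice. Penk to Tac1 gave 5.44, 5.10 and 4.93 in control mice and 5.32, 5.58 and 5.34 in PLDP mice. The diets overlapped in each case, and the means of the Penk to Pdyn ratio, 7.91 ± 0.22 and 7.91 ± 0.26 (SD, n = 3 each), were alike to 3 digits. Adora2a to Pdyn was 1.197, 1.195 and 1.08 in control mice and 1.17, 1.07 and 1.07 in PLDP mice. Adora2a to Tac1 was 0.813, 0.797 and 0.661 in control mice and 0.777, 0.785 and 0.704 in PLDP mice. The receptor pair itself, Drd2 to Drd1, spread most, from 0.982 in control mouse 10 to 1.40 in PLDP mouse 17. In exact two-sided permutation tests of the log2 ratios, which with 3 mice against 3 cannot give a p under 0.1, the 5 ratios had p-values from 0.2 to 1, or 0.75 to 1 after Benjamini-Hochberg adjustment over the 5.

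**Figure D3:**
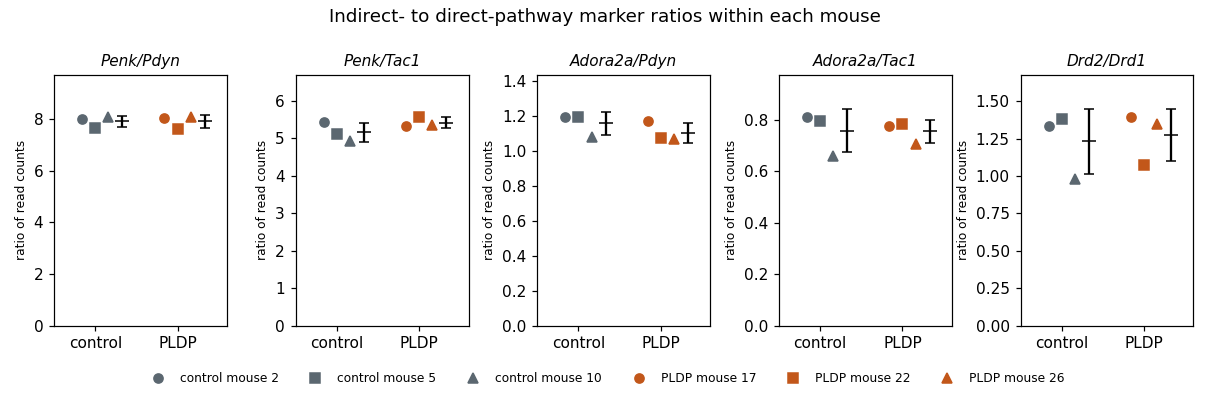
Ratios of read counts of an indirect-pathway gene to a direct-pathway gene within each mouse, not corrected for gene length; symbols are single mice, black bars the mean ± SD of 3 mice, and each axis starts at 0. Control and PLDP mice overlap in each of the 5 panels, and Drd2/Drd1 ranges from 0.982 to 1.40.

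Drd1 and Drd2, which also mark these neurons, had log2 fold changes of -0.01 and 0.04, with 95% intervals of -0.18 to 0.15 and -0.16 to 0.23 and unadjusted p-values of 0.854 and 0.688 (edgeR). Drd1 had 19.7 ± 1.67 CPM in control and 19.5 ± 0.66 in PLDP mice, and Drd2 24.0 ± 2.58 and 24.7 ± 2.89 (SD, n = 3 each). In the list of 7 direct-pathway genes, none passed the threshold (0 higher, 0 lower), and its genes with the highest CPM, not corrected for length, were Chrm4, a muscarinic receptor that lowers cAMP (0.08 higher on the log2 scale, unadjusted p = 0.176), and Tac1. Of 6 indirect-pathway genes, Gpr52 has no row of its symbol, 5 were tested and 0 were called in either direction. Penk and Adora2a had the highest CPM of them, not corrected for length, and per kilobase Drd2 (9.57) was above Adora2a (8.63).

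Around the 9 genes, 10 lists of related genes from general knowledge held 120 further genes, of which 116 were tested. The threshold was passed by 8 genes higher and by 9 genes lower in PLDP mice, 14.7% of those tested beside 8.6% of all features. Of the features within the level range of the 9 striatal genes, a range that the related genes exceed on both sides, 10.3% passed. The median log2 fold change over the 116 genes was -0.0082. The smallest adjusted p among them was 0.261, so none passed after adjustment over all features. Lists share genes, and each call below is from edgeR at the unadjusted threshold.

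In the list of cAMP signaling and of the Ppp1r1b phosphoprotein, 39 of 40 genes were tested, with 1 higher and 3 lower and a median log2 fold change of -0.0052. The gene left out, Ppp3r1, had 2 to 7 counts per mouse, and Pde2a was tested at 10 to 17 counts. Whether such low counts reflect the level of these genes or the upstream counting was not tested. Pde4b, a cAMP phosphodiesterase, fell from 85.7 ± 0.37 to 75.6 ± 3.49 CPM (SD, n = 3 each), with the PLDP mice at 74.7, 79.5 and 72.6 CPM and every control mouse above 85 CPM. Prkacb, a catalytic subunit of protein kinase A, and Prkar2b, a regulatory subunit of it, fell by 0.11 and 0.14 on the log2 scale (unadjusted p = 0.0108 and 0.0159). Rasd1, the relative of Rasd2, rose from 10.97, 8.62 and 10.7 CPM in control mice to 11.5, 12.2 and 12.9 CPM in PLDP mice, 0.28 higher on the log2 scale (unadjusted p = 0.0171). Pde4b and Prkacb stayed past the threshold whichever of the 6 mice was dropped from the fit, whereas Prkar2b and Rasd1 lost it without control mouse 5 or PLDP mouse 26. Without PLDP mouse 17 the list had 8 higher genes, and without PLDP mouse 22 it had 5 lower. Over all features, 1293 were higher without PLDP mouse 17, beside 913 with all mice. Without PLDP mouse 22, 751 features were lower, beside 685 with all mice.

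The enzymes at both ends of cAMP were also taken as families. Of 9 adenylyl cyclases, Adcy4, an isoform at 3.36 CPM over the 6 mice, was the only one called. Adcy4 rose by 0.34 on the log2 scale (unadjusted p = 0.0383), a call lost in 5 of the 6 fits without 1 mouse, with DESeq2 and with no filter on low counts. Adcy1, which is known from cortex, hippocampus and cerebellum, had the highest level per length of the family, at 65.8 CPM per kilobase, and Adcy5 with 30.1 was second. Of 19 phosphodiesterases, Pde4c was higher and Pde4b and Pde8a lower. Pde8a fell from 23.5 ± 0.75 to 20.4 ± 0.67 CPM (SD, n = 3 each; unadjusted p = 0.00874). Pde4c, from 2.22 ± 0.05 CPM in control mice (SD, n = 3), rose by 0.43 on the log2 scale (unadjusted p = 0.024), and kept its call in 2 of 6 fits without 1 mouse and not with DESeq2.

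Of 18 receptors for the inputs and peptides of these neurons, 1 was higher and 2 lower. Oprk1, the kappa opioid receptor on which the dynorphins from Pdyn act, had 9.48, 9.94 and 9.80 CPM in control mice and 8.04, 8.22 and 8.23 CPM in PLDP mice. All PLDP mice were thus below all control mice, with a log2 fold change of -0.25 (standard error 0.10, 95% interval -0.46 to -0.05, unadjusted p = 0.0171, adjusted p = 0.450), while Pdyn itself did not pass the test. Over all features, 14.2% did not overlap between the diets in either direction, and 19 of the 116 related genes did not. The call of Oprk1 held in each fit without 1 mouse and was lost with DESeq2 (unadjusted p = 0.0602). Tacr3, the neurokinin B receptor, fell from 5.47 ± 0.26 to 4.18 ± 0.92 CPM (SD, n = 3 each; unadjusted p = 0.0205), and lost its call without control mouse 10 or PLDP mouse 17. Chrm1, a muscarinic receptor that both classes of projection neurons share with cortical neurons, rose from 111.3 ± 0.99 to 122.0 ± 2.67 CPM (SD, n = 3 each; unadjusted p = 0.00594). In the 14 opioid and tachykinin genes, which include Penk, Pdyn and Tac1, 12 were tested, and Oprk1 and Tacr3 were the only genes called.

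Of 30 further genes enriched in projection neurons, 29 were tested, with 3 higher and 3 lower. Rasgrp2, an activator of the small GTPase Rap1, rose from 38.3 ± 1.57 to 43.7 ± 4.66 CPM (SD, n = 3 each; unadjusted p = 0.0165). Kcnh4, a potassium channel gene, rose from 13.7 ± 0.54 to 15.9 ± 0.55 CPM (SD, n = 3 each; unadjusted p = 0.0152). Spock3, a proteoglycan gene, fell from 109.4 ± 4.11 to 97.2 ± 7.69 CPM (SD, n = 3 each; unadjusted p = 0.00659). Gpr149 fell by 0.42 on the log2 scale (unadjusted p = 0.034) from 3.64 ± 0.50 CPM in control mice. Lrrc10b and Scn4b, named after their values were seen, were the remaining called genes, with log2 fold changes of 0.16 and -0.12 and unadjusted p-values of 0.0496 and 0.0469. Only Spock3 of these 6 kept its call in every fit without 1 mouse. Kcnh4 lost it without control mouse 2 or PLDP mouse 22, Rasgrp2 without control mouse 5 or PLDP mouse 17, and Gpr149, Lrrc10b and Scn4b in 4 of 6 fits each. With DESeq2, Gpr149 (unadjusted p = 0.0754), Lrrc10b (0.0891) and Scn4b (0.051) also lost it, as did Lrrc10b with library-size scaling or a minimum of 10 counts in each mouse and Scn4b with upper-quartile scaling.

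Bcl11b, a transcription factor needed for the development of projection neurons and also used by deep-layer cortical neurons, was the only called gene of 14 transcription factors. Levels of Bcl11b were 61.6, 60.4 and 65.8 CPM in control mice and 66.0, 70.8 and 72.6 CPM in PLDP mice, 0.16 higher on the log2 scale (unadjusted p = 0.00947). The lowest PLDP mouse and the highest control mouse were close, and the call was lost without PLDP mouse 26. In the list of Rgs9 with its relatives and partners, 9 genes were tested and 0 called. Its genes with the highest CPM, not corrected for length, were Rgs7bp, which anchors such proteins at the membrane (log2 fold change 0.04, unadjusted p = 0.423), and the receptor Gpr158 (-0.07, unadjusted p = 0.128). Each passed the threshold in 1 of the 6 fits without 1 mouse. Rgs7bp did so without PLDP mouse 17 (unadjusted p = 0.0265 by edgeR), and Gpr158 without PLDP mouse 22 (-0.12, unadjusted p = 0.0182).

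Because a whole brain was extracted, marker lists of other regions and cells were summed in each mouse beside the striatal genes. Totals per mouse were 18797061 to 23938729 counts. The 9 cortical and hippocampal genes summed to 1128 to 1187 CPM in control and 1205 to 1244 CPM in PLDP mice, and 3 of them passed the threshold, all higher. Most of this sum was Slc17a7, with means of 912.8 CPM in control and 958.0 CPM in PLDP mice. Slc17a7 itself was not called (unadjusted p = 0.0687 by edgeR). The 6 brainstem and spinal cord genes, each lower at that threshold, summed to 138.8 to 152.0 CPM in control and 75.3 to 108.8 CPM in PLDP mice. Choroid plexus genes were at 716 to 772 and 561 to 711 CPM, with 2 of 4 lower, and hypothalamic genes at 41.9 to 42.9 and 33.6 to 40.3 CPM, with 1 of 5 tested lower. Most of the choroid plexus sum was Ttr, with means of 708.4 CPM in control and 607.4 CPM in PLDP mice. The lists for striatal interneurons (1 of 6 higher), thalamus (0 of 6 called), cerebellum (0 of 7), olfactory bulb (1 of 4 higher), midbrain dopamine neurons (0 of 4), astrocytes (1 of 5 lower), oligodendrocytes (2 of 5 lower), microglia (1 of 4 lower) and endothelium and blood (1 of 4 higher) had ranges that overlapped between the diets. The striatal sums overlapped as well, at 991 to 1044 and 993 to 1040 CPM. Called related genes such as Chrm1, Bcl11b and Tacr3 are also expressed outside the striatum, and the part of the shifts of other regions in their differences was not tested.

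**Figure D4:**
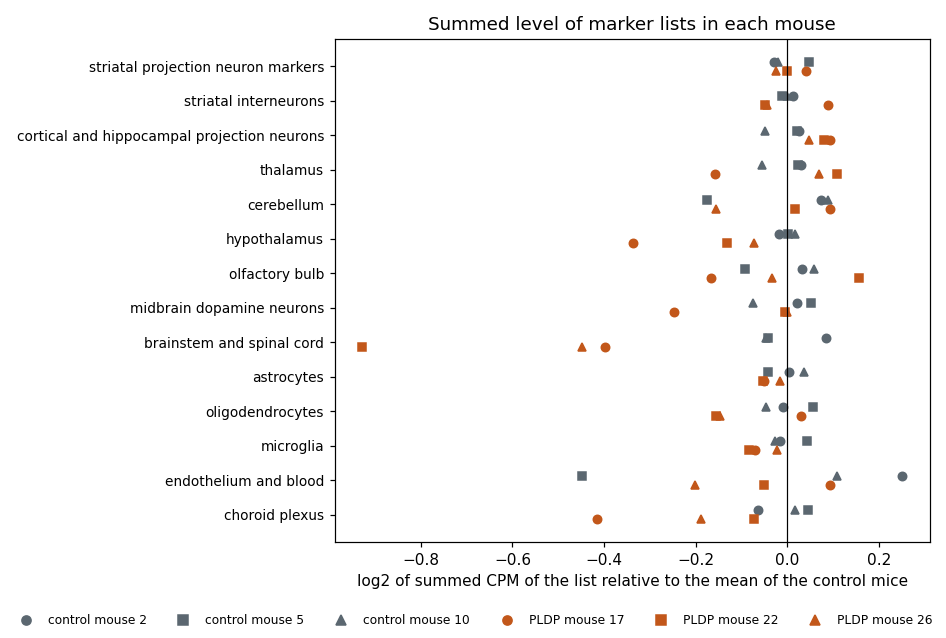
Summed CPM of each marker list in each mouse, as log2 relative to the mean of the 3 control mice; symbols are single mice, control mice in grey and PLDP mice in orange. The striatal list stays near 0 in all 6 mice. The PLDP mice lie below the control mice for the lists of brainstem and spinal cord, hypothalamus and choroid plexus. For the cortical and hippocampal list the PLDP mice lie above the control mice.

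As a description of their pattern over the 6 mice, the log2 CPM of the 9 genes were standardised and averaged, which gave the highest value in control mouse 5 and the next in PLDP mouse 17. The genes most like this average, chosen as the highest Pearson r among all tested features with a symbol, were Cep131 (r = 0.996, Spearman rho = 0.943), Tmem8 (r = 0.990, rho = 0.829), Pcbp2 (r = 0.986, rho = 0.943), Rgs10 (r = 0.984, rho = 0.886) and Tmed1 (r = 0.983, rho = 0.829), over 6 mice that share a library design and 2 diets. Being the highest of the correlations of all such features over so few mice, these values only describe the order of the mice. Among the 9 genes themselves, Pdyn followed the average it is part of most closely (r = 0.900) and Pde10a least (r = 0.040). Of the other striatal receptor genes, Drd2 had r = 0.690 and Drd1 r = -0.179.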

How the data were processed

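RNA-seq of whole brain from 3 control and 3 PLDP mice was used, with paired-end libraries of mRNA prepared by a strand-preserving kit. For each mouse the authors deposited raw read counts per gene, without normalization. The submitters' processing notes name cutadapt 2.9, HISAT2 2.2.0, featureCounts 2.6.0 and DESeq2 1.6.3, and the builds GRCh38 and GRCm38, with no roles. The strand setting of the counting and the annotation are not given in the sources used here, so reads of a gene and of an antisense partner may not be separated. Symbols, coordinates and exon lengths came from GENCODE M21 (GRCm38), which held 54694 of 55034 Ensembl identifiers; 5320 numbered features without one stayed in the tests.

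The filter filterByExpr (minimum count 10, minimum total 15) of edgeR 4.0.16 (R 4.3.3) left 18580 features, which were scaled by TMM and tested together with glmQLFit and glmQLFTest in a model of diet alone. Calls were made at unadjusted p-values under 0.05, with Benjamini-Hochberg adjusted values beside it. Intervals of fold changes are 95% intervals from the same fit. CPM are computed here from the deposited counts. The edgeR p-values judge a diet difference against the spread between mice of the same diet, estimated with information from all features tested. Alternatives were other filters, scalings, DESeq2 1.42.0, limma 3.58.1 voom and leaving out each mouse. Python 3.11.15, pandas 2.3.3, scipy 1.17.1 and matplotlib 3.10.9 were used for the rest.

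The 9 genes and all lists were chosen with earlier results of these data known. The text names all 9, of each related list up to 4 called genes by smallest p or else its 2 most abundant, the 5 genes most like the average pattern, and Drd1 and Drd2 as striatal markers. Exceptions, named after their values were seen, are Lrrc10b, Scn4b, Adcy1, Slc17a7 and Ttr, and genes named for a missing row or for few counts.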

Additional observations from a re-analysis of the deposited data

How the results depend on the processing

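No paired analysis was possible because the diets share no mouse number. The numbers of called striatal genes, 0 higher and 0 lower, were the same with DESeq2, with limma voom, with no low-count filter, with a minimum of 10 counts in each mouse, and with upper-quartile, relative log expression or library-size scaling, and no sign of the 9 genes turned under these. Leaving out each mouse in turn gave 0 higher genes and 0 to 1 lower (Pde10a without control mouse 2), and a median log2 fold change from -0.030 to 0.015. Signs turned in such fits for Ppp1r1b (-0.061 to 0.015), Pde10a (-0.146 to 0.026), Penk (-0.030 to 0.027), Pdyn (-0.029 to 0.039), Drd1 (-0.061 to 0.055) and Drd2 (-0.045 to 0.129). Signs held but sizes moved for Adora2a (-0.143 to -0.0069), Tac1 (-0.116 without PLDP mouse 17 to -0.022 without PLDP mouse 22), Rasd2 (0.020 without control mouse 10 to 0.086 without control mouse 5), Rgs9 (0.017 to 0.106) and Adcy5 (0.033 to 0.068). Chrm4 likewise ranged from 0.047 without control mouse 5 to 0.105 without control mouse 10. Over all features, DESeq2 called 564 higher and 362 lower, and no low-count filter called 1314 higher and 1046 lower. Without 1 mouse between 640 and 1293 were higher and between 493 and 1072 lower, with the largest number in both directions without PLDP mouse 17. With DESeq2, called genes changed to 0 higher adenylyl cyclases (also 0 with no low-count filter), 0 higher phosphodiesterases, and 1 lower opioid or tachykinin gene, 1 lower and 2 higher genes enriched in projection neurons and 1 lower receptor. Without 1 mouse, counts ranged over 0 to 1 for direct-pathway genes higher, transcription factors in either direction, adenylyl cyclases higher and Rgs9 relatives in either direction, 1 to 3 for genes enriched in projection neurons in either direction, 0 to 8 and 2 to 5 for cAMP genes higher and lower, 1 to 5 for receptors lower, 0 to 3 for phosphodiesterases higher and 1 to 3 for opioid and tachykinin genes lower. The cause of these changes was not tested. Depth limits genes with few counts, such as Pde4c with as few as 46 in a mouse.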
